A study of Rattus norvegicus with 12 samples.

Results

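Arc, the gene of the activity-regulated cytoskeleton-associated protein, was followed in cultured rat hippocampal neurons whose excitatory synapses had been silenced with drugs. Its probes were taken by name, as every array probe whose transcript accession belongs to Arc in RefSeq, and not by their values. Arc itself was chosen with earlier results of these data known. That rule found 1 of the 30367 probes, which represented 1 of the 21240 genes or unnamed targets tested. The gene Nol3, which carries the name Arc as a synonym, was not used. The Arc probe was printed 10 times on each array, and all of its spots lay well above background and below saturation on all 12 arrays.

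The neurons came from Wistar rat embryos at embryonic day 18 and were used after 14 to 15 days in culture. Blocked cultures received 50 µM GYKI-52466, an antagonist of AMPA-type glutamate receptors, together with 10 µM MK-801, an antagonist of NMDA-type glutamate receptors, for 9 h or for 26 h. Each time had its own untreated cultures, named control here, which received neither drug. The 4 groups were blockade 9 h, control 9 h, blockade 26 h and control 26 h, each with 3 arrays of independent cultures per the labels. Both drugs were always given together, so that neither can be judged alone, and no vehicle is named for the controls.

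Arc is an immediate early gene: its transcription starts within minutes of strong synaptic input and needs no new protein synthesis. Calcium entering through NMDA receptors, and brain-derived neurotrophic factor acting on its receptor TrkB, reach the gene through ERK kinases and the factors CREB, SRF and MEF2. The mRNA travels into dendrites and is translated near active synapses, and the protein binds endophilin and dynamin and speeds the removal of AMPA receptors from the membrane. Loss of Arc protein leaves more AMPA receptors at the surface, which ties the gene to homeostatic scaling, the strengthening of synapses after long silence.

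Per the file headers, the 6 slides were scanned on 2 different days that cut across the groups. Day 1 held the blockade 26 h and control 9 h arrays, and day 2 held the blockade 9 h and control 26 h arrays. A difference between blocked and control cultures at 1 time, or between the times within 1 treatment, therefore cannot be told apart from a difference between days. Taking the mean of the 9 h and 26 h effects puts equal numbers of blocked and control arrays on each day and slide. Arrays of 1 group correlated across probes at 0.985 to 0.994. The p-values measure the spread between 3 cultures a group.

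Levels are given as log2 of the Arc signal over the 75th percentile of all spots of the same array, so that 0 means a signal equal to that percentile. In the blockade 9 h cultures Arc had levels of -0.41, -0.84 and -0.01 in replicates 1 to 3, which correspond to 75.5%, 55.8% and 99.3% of the percentile signal. The control 9 h cultures had 1.08, 0.63 and 2.52, or 212%, 154% and 573% of it. All 3 blocked arrays lay below all 3 control arrays at 9 h, as did 16.3% of the genes compared, and control replicate 3 stood apart as the highest Arc level of the series.

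At 26 h the blocked cultures had Arc levels of -1.89, -2.30 and -2.08, or 27.0%, 20.3% and 23.7% of the percentile signal. Their control cultures had 1.49, 2.0 and 1.55, or 280.0%, 399% and 293%. Here too the groups did not overlap, which held for 22.7% of the genes, and the gap between the highest blocked and the lowest control array was wider than at 9 h. Each of the 6 blocked arrays lay below each of the 6 control arrays, a separation shared by 0.725% of the genes (154 of 21237).

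In group means Arc stood at -0.42 ± 0.42 in blockade 9 h and 1.41 ± 0.99 in control 9 h cultures, and at -2.09 ± 0.21 in blockade 26 h and 1.68 ± 0.28 in control 26 h cultures (log2, SD, n = 3 each). The order of the groups was thus control 26 h, control 9 h, blockade 9 h and blockade 26 h from high to low. The 2 control groups overlapped, while blockade 9 h lay apart from both its neighbours in the order. Among the gene signals of its own array Arc stood at percentiles 64.3 to 71.9 in blockade 9 h and 77.4 to 90.8 in control 9 h cultures, and at 49.9 to 54.5 in blockade 26 h and 84.1 to 87.8 in control 26 h cultures. This place follows Arc from array to array and does not compare RNA amounts between genes, since probes differ in brightness.

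**Figure D1:**
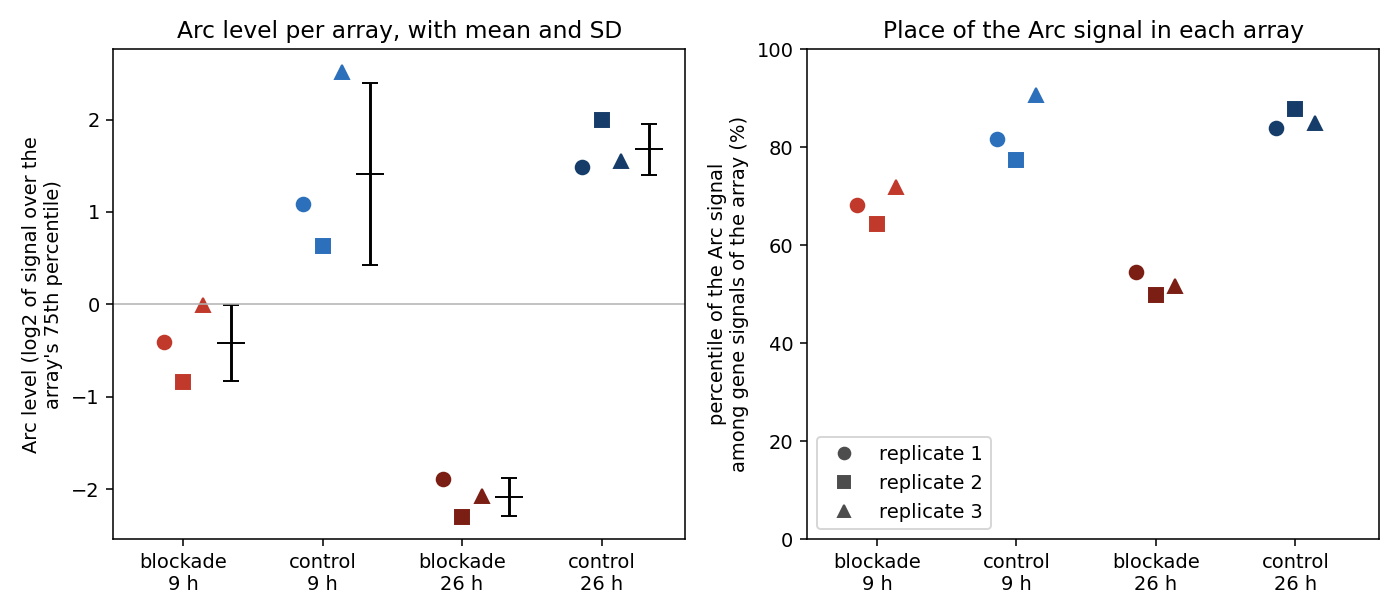
Arc in every array, with the log2 level over the array's 75th percentile on the left axis and the percentile of the Arc signal among the gene signals of the array on the right. Points are single arrays shaped by replicate, and bars show the mean and SD of 3 arrays. All blocked arrays lie below all control arrays, the lowest at -2.30 in blockade 26 h and the highest at 2.52 in control 9 h.

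The cultures varied unequally. In the control 9 h group the highest Arc signal was 3.71-fold the lowest, and 96.8% of all genes had a smaller SD there. The corresponding range was 1.78-fold in blockade 9 h, 1.33-fold in blockade 26 h and 1.42-fold in control 26 h cultures. The 10 printed copies of the probe differed far less, with an SD of 0.03 log2 within the median array, so the spread is between arrays and not between spots.

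Arc was lower after 9 h of blockade by 3.55-fold. The log2 difference of blockade minus control was -1.83 with a standard error (SE) of 0.41, a 95% interval from -2.74 to -0.91 and a limma adjusted p of 0.0119. At this threshold of 0.05 on the adjusted p, 21.1% of all genes were called at 9 h, so that a call alone says little here. By size, Arc had rank 80 from the lowest of the 21240 effects. Within same-numbered cultures the differences were -1.49, -1.47 and -2.53. Without replicate 3 of the control 9 h group, the culture with the highest Arc level, the effect was -1.27, and it was still called. In a bulk culture, fewer active neurons and less Arc RNA per neuron cannot be told apart.

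At 26 h the Arc signal of blocked cultures was lower by 13.6-fold, with a log2 difference of -3.77 (SE 0.41, 95% interval -4.68 to -2.85, limma adjusted p = 0.000741). Of all genes, 16.4% were called at 26 h. The Arc effect held rank 9 from the lowest over all genes, and the same-numbered cultures differed by -3.37, -4.30 and -3.63. With 3 arrays against 3, an exact permutation test at 1 time cannot go below p = 0.1 (two-sided), and Arc reached that value at both times.

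Averaged over both times, which balances the scan days, Arc was 6.95-fold lower in blocked than in control cultures. The log2 effect was -2.80 (SE 0.29, 95% interval -3.44 to -2.15, limma adjusted p = 0.000505), against a median of -0.02 over all genes, and 4.44% of genes were called for this average. Only Npas4 had a lower average effect among the 21240. An exact two-sided permutation test that exchanged treatment labels within each time gave p = 0.005, the smallest its 400 arrangements allow. Exchanging labels only within the 6 same-numbered pairs, a test added after the values were known, gave an exact two-sided p = 0.03125, the smallest its 64 arrangements allow, with Arc lower in 6 of 6 pairs. Within day 1, blockade 26 h arrays lay 3.50 log2 units below control 9 h arrays on average (11.3-fold). Within day 2, blockade 9 h arrays lay 2.10 log2 units below control 26 h arrays (4.27-fold). Neither day showed overlap between its treatment groups, which held for 16.1% of genes on day 1 and 11.1% on day 2, but each of these contrasts sets different times against each other.

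When replicate 2 was left out of every group, the effects were -2.01 at 9 h, -3.50 at 26 h and -2.75 on average, and limma's adjusted p was 0.116, 0.0820 and 0.0557. Without replicate 1 of every group the 9 h adjusted p was 0.0864, and the other 2 effects kept their calls. Without replicate 3 of every group all 3 effects kept their calls, at -1.48, -3.84 and -2.66 (limma adjusted p = 0.0325, 0.00295 and 0.00279).

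**Figure D2:**
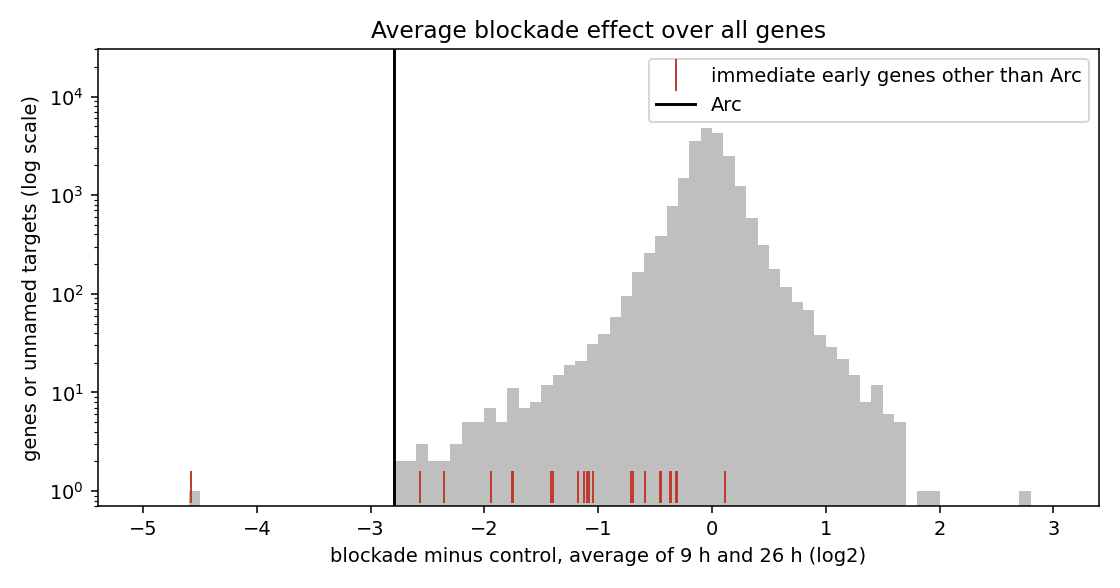
Histogram of the average blockade effect (blockade minus control, log2) over the 21240 genes or unnamed targets, with the number of genes on a log axis. The black line marks Arc at -2.80 and the red ticks mark the other immediate early genes tested, of which only Npas4 lies further to the left.

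The effect at 26 h was more negative than that at 9 h by 1.94 log2 units, a factor of 3.83 (SE 0.58, 95% interval of the difference -3.23 to -0.64, limma adjusted p = 0.0308). By its construction this difference sets day 1 against day 2 and cannot be told apart from a day effect, and 28.6% of all genes were called for it. With slide as a random block the adjusted p was 0.143. In blocked cultures Arc was lower at 26 h than at 9 h by 3.18-fold (log2 -1.67, SE 0.41, 95% interval -2.59 to -0.75, limma adjusted p = 0.0151), where 25% of genes were called. All 3 blockade 26 h arrays lay below all 3 blockade 9 h arrays, as did 27.3% of genes. The controls at 26 h and at 9 h differed by 0.27 (SE 0.41, 95% interval -0.65 to 1.18, limma adjusted p = 0.713), against 20.2% of genes called. That sign turned to -0.12 without control 9 h replicate 2. The time effect averaged over both treatments, which is balanced over days, was -0.70 (SE 0.29, 95% interval -1.35 to -0.05, unadjusted p = 0.0364). It missed the threshold after adjustment (limma adjusted p = 0.152), where 12.7% of genes were called.

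Among the 666 called genes with a usable symbol, ordered by average effect, Npas4 stood first and Arc second, followed by Bdnf (-2.59), Perm1 (-2.58) and Nr4a1 (-2.56). Npas4 encodes a transcription factor that neurons induce through calcium entry. Its levels were -6.11, -6.08 and -4.49 in blockade 9 h and -3.83, -3.08 and -1.78 in control 9 h cultures, which gave an effect of -2.66 (log2). At 26 h none of the blocked arrays had Npas4 well above background, and controls had -2.29, -1.33 and -2.0. The gene was therefore at least 58.2-fold lower there, counted against the lowest signal measurable on each blocked array, a bound that was not tested. The fitted Npas4 effect at 26 h was -6.50 (limma adjusted p = 0.000204). Both this value and the Npas4 average of -4.58 depend on values below background. Bdnf encodes brain-derived neurotrophic factor, which itself induces Arc. Its levels were -2.18, -2.21 and -2.43 in blockade 9 h and -0.64, -0.42 and -0.42 in control 9 h cultures, and -2.76, -3.02 and -3.02 in blockade 26 h and 0.39, 0.78 and 0.26 in control 26 h cultures. The Bdnf groups did not overlap at either time, as for 1.51% of genes, and its average effect had an SE of 0.11, against 0.29 for Arc.

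Arc fell together with most of the other immediate early genes. Of 24 listed, 23 were tested (Fosb had no matched probe), and for the average effect 16 were called lower and 0 higher, where 2.22% of all genes were called lower. The median effect of the 23 was -1.08, against -0.02 over all genes. At 9 h 13 were called lower, with a median of -0.71, where 9.64% of all genes were. At 26 h 15 were called lower, with a median of -1.01, where 9.48% of all genes were. The list shares its cultures with Arc, so its members are not independent observations. It was also chosen with earlier results of these data known. Without replicate 2 of every group none of the 23 passed limma's adjusted threshold at 9 h, at 26 h or on average. Of all 21240 genes, 0, 20 and 36 passed it then. An unadjusted p under 0.05 was reached by 13, 15 and 17 of the 23. In that fit 3994, 3140 and 1579 of all genes reached it.

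The nuclear receptor genes were among the lowest. Nr4a1, an orphan receptor and transcription factor, had levels of -0.56, -0.81 and -0.22 in blockade 9 h and 0.38, 0.33 and 1.28 in control 9 h cultures. At 26 h it had -1.96, -1.76 and -1.91 in blocked and 2.75, 2.02 and 1.39 in control cultures. The groups did not overlap at either time, as for 1.51% of genes, and the effects were -1.20 at 9 h and -3.93 at 26 h. Its relative Nr4a2 had effects of -1.99 and -2.72 at the same times, and Nr4a3 was not called on average (-0.59, adjusted p = 0.190).

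Fos, the founding member of the AP-1 factors, had average effects of -1.75, with -1.32 at 9 h and -2.17 at 26 h. Junb (-1.18) and Fosl2 (-1.10), other AP-1 subunits, were called lower as well, whereas Jun (0.11) and Fosl1 (-0.46) were not called. Of the zinc finger factors of the Egr family, Egr4 (-1.76) and Egr1 (-1.05) were called lower on average, and Egr2 (-0.30) and Egr3 (-0.45) were not. Egr1 had an effect of -0.23 at 9 h, which was not called, and -1.86 at 26 h. Atf3, a stress-responsive factor, had -0.71.

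Genes that act at the synapse or in signalling were also among the members called lower on average. Ptgs2, the inducible cyclooxygenase, had an effect of -1.95, and Dusp1, a phosphatase of MAP kinases, had -1.41. The secreted pentraxin Nptx2, which gathers AMPA receptors, had -1.13, and the kinase Plk2, which acts on dendritic spines, had -1.08. Ier2 had -0.69 and Ier5 -0.36. Homer1, whose short form loosens synaptic scaffolds, had -0.32 and passed narrowly (limma adjusted p = 0.0480). Its 1 probe cannot be assigned to a splice form here. Ccn1 (-1.40, adjusted p = 0.0896) and Btg2 (-0.37, adjusted p = 0.206) were not called on average. With the replicate number as a block shared by both times, Ccn1 was called as well (limma adjusted p = 0.000970). That block called 1485 of all 21240 genes lower on average, against 471 without it.

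**Figure D3:**
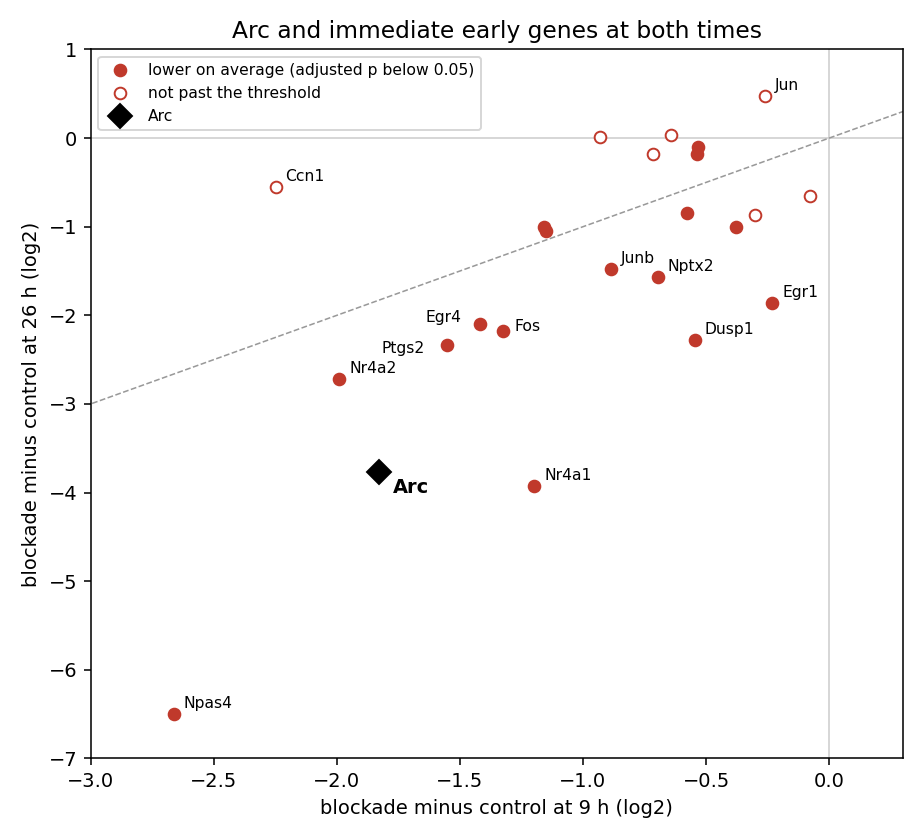
Blockade effect at 9 h (x axis, log2) against the effect at 26 h (y axis, log2) for Arc and the 23 other immediate early genes tested. Filled points were called lower on average and open points were not, and the dashed line marks equal effects. Arc lies at -1.83 and -3.77, and the Npas4 value at 26 h comes from blocked arrays below background.

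Of the ligands and receptors through which synaptic input induces Arc, 8 of 9 listed genes were tested. On average Bdnf was called lower, and the median effect of the list was 0.07. The NMDA receptor subunits Grin1, Grin2a and Grin2b had average effects of 0.01, 0.30 and 0.13 and were not called. With the replicate block Grin2a passed (limma adjusted p = 0.0407), where 1313 of all 21240 genes were called higher on average. Grin1, the obligatory subunit, was called higher at 9 h (1.05) and lower at 26 h (-1.03), and at both times the group scanned on day 2 was the higher one. Ntrk2, which encodes TrkB, had an average of -0.20 and was not called.

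Of the 14 listed genes of kinases and factors that carry the signal to the Arc gene, 11 were tested, 1 was called higher on average, where 2.23% of all genes were, and 0 lower, with 1 unadjusted p under 0.05 and a median of 0.00. That gene was Elk1, an ERK-phosphorylated partner of SRF, at 0.69 (limma adjusted p = 0.000822). By limma, 3500 of all 21240 genes had an unadjusted p under 0.05 on average. Creb1 (-0.16), Srf (0.00), Mef2a (0.13) and Mef2d (-0.04) were not called. The probe of Mapk3, which encodes an ERK kinase, was saturated on all 12 arrays and gives no reading of its RNA. Mrtfa, Mrtfb and Mef2c had no matched probe.

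Among the genes of proteins that Arc binds or acts with, 12 of 13 were tested and none was called on average. Of these 12, 6 had an unadjusted limma p under 0.05, as did 3500 of all 21240 genes. At 9 h 6 were called higher, where 11.4% of all genes were, and at 26 h 5 were called lower, where 9.48% were. The 5 were all among the 6, namely Sh3gl1, Camk2b, Wasf1, Dbn1 and Kat5. In each of them the group scanned on day 2 was thus the higher one at both times. The probe of Ap2m1, 1 of the 12, was saturated on all arrays. The endophilin gene Sh3gl1 moved most, with 1.33 at 9 h and -1.52 at 26 h and an average of -0.10. Sh3gl3, the other endophilin gene listed, had an average of 0.47 (adjusted p = 0.0523), and the dynamin gene Dnm2 had 0.03. With the replicate block 3 partners were called higher on average, where 1313 of all 21240 genes were. They were Sh3gl3, Camk2b (0.34) and Cacng2 (0.32), at limma adjusted p of 0.00440, 0.0132 and 0.0203. Scaled to the array median, 2 and not 5 partners were called lower at 26 h, where 1588 and not 2013 of all genes were.

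The AMPA receptor subunits, whose surface number Arc protein lowers, were all 4 tested. Gria1 was called higher on average by 0.63 (SE 0.13, limma adjusted p = 0.0237), with levels of -1.62, -1.33 and -1.41 in blockade 9 h and -2.58, -2.08 and -1.88 in control 9 h cultures. At 26 h it had -1.34, -1.41 and -1.24 in blocked and -2.0, -2.02 and -1.57 in control cultures. The Gria1 groups did not overlap at either time, as for 1.53% of genes in that direction, although the effect at 26 h alone was not called (0.53, adjusted p = 0.0794). Gria2 (0.20), Gria3 (0.00) and Gria4 (0.16) were not called on average. With the replicate block Gria2 was also called on average (limma adjusted p = 0.0455). The 26 h effect of Gria1 passed too (limma adjusted p = 0.0195). That block called 1313 of all 21240 genes higher on average and 2830 at 26 h. Of 9 genes for transport, translation or decay of Arc mRNA and for turnover of the protein, 7 were tested and none was called on average, with 0 at an unadjusted p under 0.05. Ube3a, a ubiquitin ligase tied to Arc, had -0.22, and Fmr1, whose protein binds the mRNA, had -0.04. Of all 21240 genes, 3500 had an unadjusted limma p under 0.05 on average.

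Across the 12 arrays Npas4 followed Arc most closely of 12331 genes with a usable symbol and a value on every array, with a Pearson correlation of 0.98. That value includes the blockade 26 h arrays, none of which had Npas4 well above background. Next came Cckbr, a cholecystokinin receptor gene (0.97), Ankrd33b (0.96), Ptgs2 (0.95), Inhba, which encodes an activin subunit (0.95), Ier2 (0.95), Dusp1 (0.95) and Fos (0.94). The correlations describe 12 points that share 4 groups and so largely restate the group means. The median correlation over the 12331 genes was 0.10, and 45 of them (0.365%) exceeded 0.9. By Spearman's correlation 4 of the 8 remained among the 8 highest, and 5 did after the mean of each replicate number was removed.

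Inhba had levels of -3.08, -3.10 and -2.55 in blockade 9 h and -1.32, -0.78 and -0.31 in control 9 h cultures, and -3.91, -3.98 and -3.58 in blockade 26 h and -0.77, -0.77 and -1.56 in control 26 h cultures. Like Arc, it peaked in replicate 3 of the control 9 h group. Cckbr had a smaller span, with an average effect of -1.18 against -2.80 for Arc. The 2 Cckbr probes gave -1.18 and -0.86. At the other end, Ypel3 (-0.95), Engase (-0.94) and the potassium channel gene Kcnk13 (-0.93) ran most strongly against Arc, and all 3 were called higher on average, at 0.37, 0.40 and 0.87. The 2 Kcnk13 probes gave 0.19 and 0.87.

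**Figure D4:**
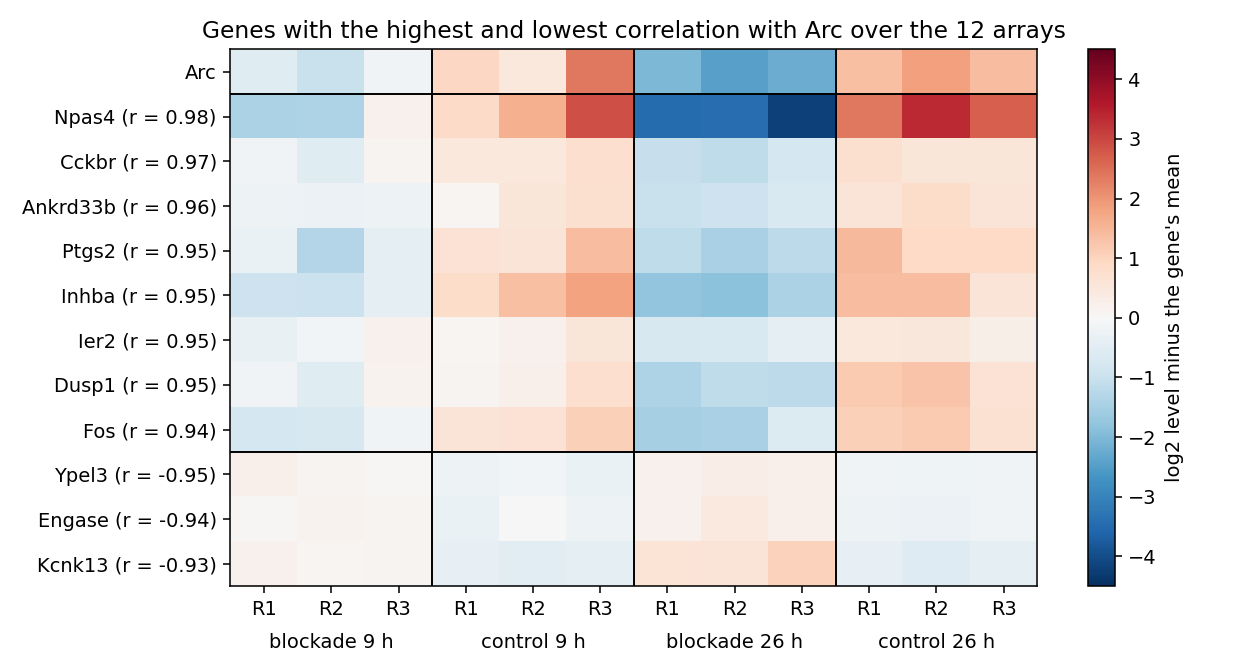
Levels of Arc, of the 8 genes with the highest and the 3 with the lowest Pearson correlation with Arc, in the 12 arrays. Colours show log2 level minus the mean of the gene, red above it and blue below it, with arrays grouped as blockade 9 h, control 9 h, blockade 26 h and control 26 h. In group means the upper 8 are higher in both control groups than in both blocked groups, and lowest in blockade 26 h. Single arrays do not always follow this order, as for Ier2 and Dusp1 at 9 h.

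Arc has no promoter sequence in the table used, so the promoters of genes that moved with it were read instead. RefSeq promoters of build GRCr8 span 250 bases before to 50 bases after a gene's start, and 7 of the 8 genes most correlated with Arc had one. The full cyclic AMP response element (CRE), the CREB site TGACGTCA, stood in 2 of these 7 (28.6%), Dusp1 and Ier2, and in 4 of 18 immediate early gene promoters (22.2%), against 1.83% of all 33469 promoters. The 4 were Btg2, Plk2 and again Dusp1 and Ier2, so the 2 counts share genes. Btg2 was not called on average. The stretches around the CRE are shown because they carry the site in 2 genes whose levels ran with Arc, with the CRE in capitals.
Dusp1, chr10:17184679-17184786, plus strand: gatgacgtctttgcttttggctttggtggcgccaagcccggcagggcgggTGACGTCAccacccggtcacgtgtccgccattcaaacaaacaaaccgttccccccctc
Ier2, chr19:40399257-40399364, plus strand: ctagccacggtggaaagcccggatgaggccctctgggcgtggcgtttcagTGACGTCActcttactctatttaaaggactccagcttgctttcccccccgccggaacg
The site ends 116 bases before the start of Dusp1 and 58 bases before that of Ier2.

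Other motifs were counted in the same windows on both strands. The shorter CRE core TGACG, which the full site contains, was in 13 of the 18 immediate early gene promoters (72.2%), in 2 of the 7 of the genes most correlated with Arc (28.6%) and in 21.2% of all promoters. The CArG box, the SRF site, was in 2 of 18 (11.1%, Egr1 and Egr2) against 1.64% of all, and TATAAA in 4 of 18 (22.2%) against 14.2%. The AP-1 site TGANTCA, the EGR site GCGTGGGCG and the MEF2 site were in 0 of 18, against 7.33%, 0.544% and 3.29% of all promoters. A match describes letters in this window and not binding.

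The labelled cell type was checked by markers. Pan-neuronal markers (6 of 7 tested) had summed signals, in units of the array's 75th percentile, of 21.0 to 25.6 in blockade 9 h and 19.1 to 23.4 in control 9 h cultures, and of 22.2 to 25.4 in blockade 26 h and 20.2 to 25.2 in control 26 h cultures. None of them was called on average, and 3 had an unadjusted limma p under 0.05, as had 3500 of all 21240 genes. With the replicate block Elavl4 (0.41) was called higher and Nefl (-0.35) lower, where 1313 and 1485 of all genes were. The 6 astrocyte markers lay well above background on all 12 arrays, and none was called on average, with 1 unadjusted p under 0.05. With the replicate block Aqp4 (-0.21) was called lower, although its probe was saturated on 3 arrays, as that of Slc1a3 was on 5. Of the 6 microglial markers, 4 lay well above background on all arrays.

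Excitatory neurons are the cells that express most Arc, and the summed signal of their markers was higher in blocked cultures at 9 h and overlapped between the groups at 26 h. The sum was 11.3 to 12.3 in blockade 9 h and 4.57 to 4.96 in control 9 h cultures, and 7.32 to 8.89 in blockade 26 h and 6.41 to 8.59 in control 26 h cultures. Of 6 tested of 7 listed, 3 were called higher on average, where 2.23% of all genes were, and 0 lower: Neurod2 (1.23) and Neurod6 (0.55), transcription factors, and Slc17a7 (0.52), the vesicular glutamate transporter. Of these, only Neurod2 was called at both times, at 1.80 at 9 h and 0.66 at 26 h. Neurod6 had 1.19 at 9 h and -0.09 at 26 h, and Slc17a7 had 0.94 and 0.09, so their average calls rest on 9 h. With the replicate block Nrgn (0.45) passed too, where 1313 of all 21240 genes were called higher on average. Tbr1 did not lie well above background on all arrays of any group. The part of these markers in the Arc result was not tested. The summed signal of meningeal, fibroblast and vascular markers, 0.955 to 14.4 over all arrays, was highest in replicate 3 of each group. Col1a1, Col1a2, Pdgfrb, Igf2 and Ptgds were highest there in every group, and Dcn and Pecam1 were not. Their part in the high Arc level of control 9 h replicate 3 was not tested. None of these 7 was called on average, with 2 at an unadjusted limma p under 0.05, as were 3500 of all genes. The endothelial gene Pecam1 (0.49) passed with the replicate block.

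**Figure D5:**
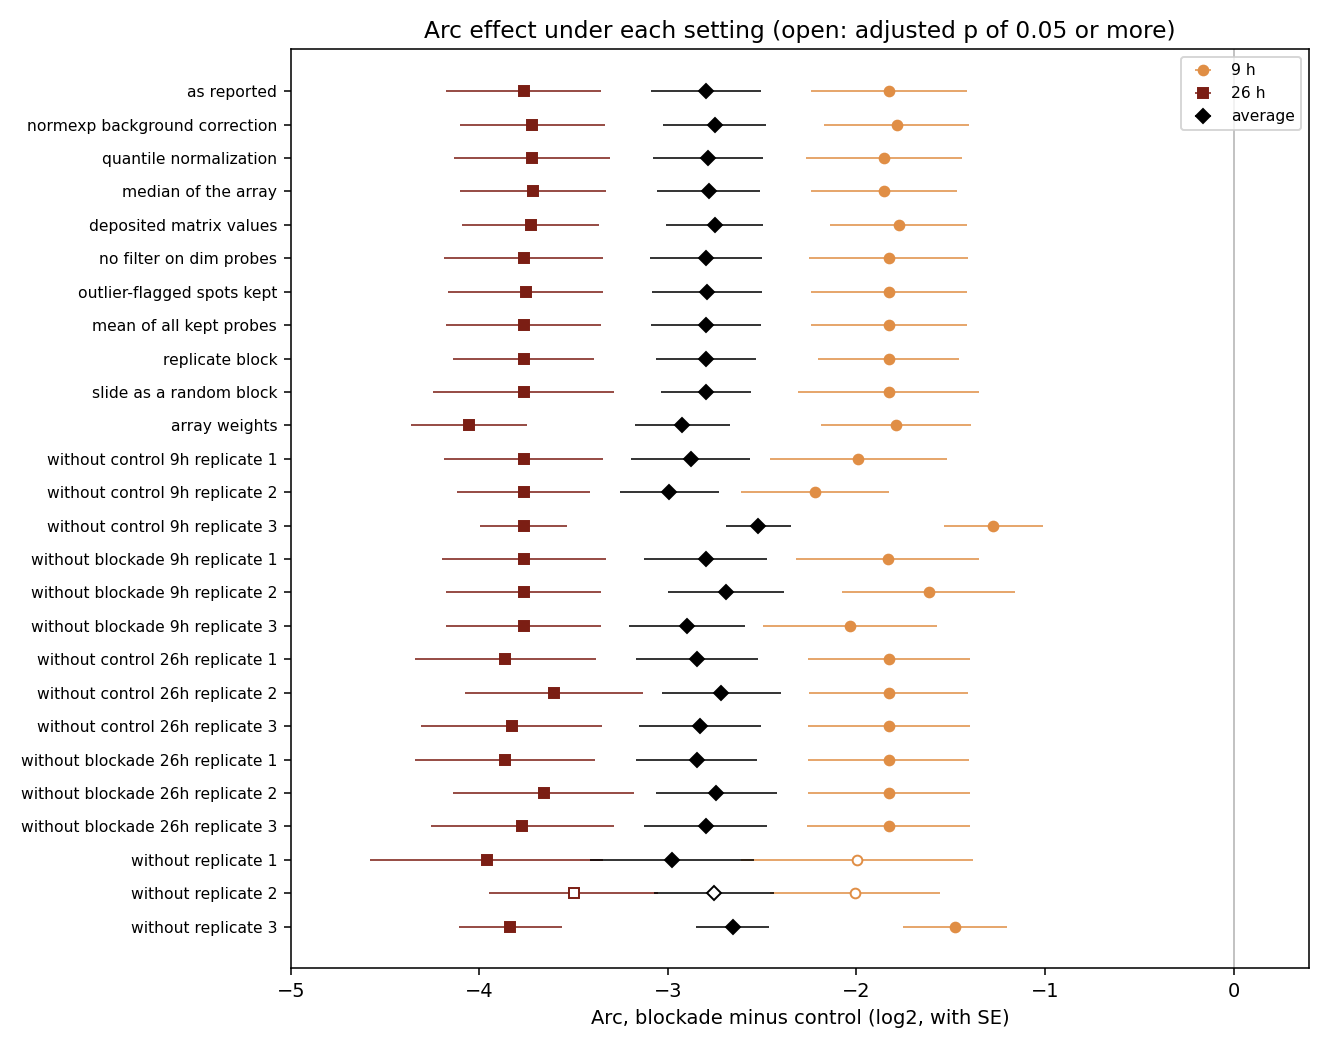
Arc effect (blockade minus control, log2, with SE) at 9 h, at 26 h and averaged over both, as reported and under each other processing or left-out culture. Open symbols mark an adjusted p of 0.05 or more. The average runs from -2.99 to -2.52. The calls at 9 h, at 26 h and on average are lost when replicate 2 is left out of every group, and the call at 9 h also without replicate 1.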

How the data were processed

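Total RNA (200 ng) of 12 rat hippocampal cultures was labelled with Cy3 and hybridised to single-colour Agilent arrays, per the labels' protocols. Per the file headers, the scans were read with Agilent Feature Extraction 10.5.1.1, whose processed signal is an intensity per spot. A matrix of log2 values was deposited as well. Against log2 of the processed signal each of its columns had a slope of 1, so the scale is log2 and the matrix differs by 1 constant per array; the rule behind the constant is not given in the sources used here, and its column medians ran from 7.57 to 7.75.

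Levels here are log2 of the processed signal minus the array's 75th percentile over 42877 non-control spots. Spots with outlier flags (3751 values) were dropped and spots of a probe averaged. A probe was kept when all arrays of 1 group or more had it well above background (24024 of 30367). Probes were named through RefSeq transcript accessions (18004 matched, 12363 not), and a gene was its kept probe with the highest mean. The headers name an older genome build than the GRCr8 table, so Arc has no coordinates here. One linear model with a mean per group was fitted with limma 3.58.1 (lmFit and eBayes, R 4.3.3) over all 21240 genes or targets. Tests were two-sided, with Benjamini-Hochberg adjustment per contrast and a threshold of 0.05. The number of arrays limits the precision. The fit was tested on simulated data.

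Arc, the gene lists and the tests were chosen with earlier results of these data known. Named genes are the list members, those past the threshold with the largest average effect first, all immediate early genes and AMPA receptor subunits, the 8 genes most and 3 least correlated with Arc, and the called genes next to Arc by average effect. After removal of group means, same-numbered blocked and control arrays of a time correlated at 0.177 to 0.657 in all 6 pairs, above the preset 0.1, so the numbers were taken as pairing the cultures of a time, although the labels do not state it. Over all 18 same-numbered pairs, across times too, the lowest was -0.04, and control 9 h replicate 2 lay at -0.04 with control 26 h and 0.03 with blockade 26 h. The replicate block nevertheless fitted the same effect of each number at both times. It is therefore not a pairing within a time, and for replicate 2 these correlations do not bear it out. Other settings covered background correction, scaling, filters, probe choice, blocks by replicate or slide, array weights and left-out cultures. Results of some list members are not reported here.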

Additional observations from a re-analysis of the deposited data

Results flagged for a closer look

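The difference between the effects at the 2 times (26 h minus 9 h, limma interaction) passed the threshold for Arc at -1.94. Of the 23 other immediate early genes tested, the same difference passed for 4: Npas4 at -3.84, Nr4a1 at -2.73, Dusp1 at -1.73 and Egr1 at -1.63. Among other genes named here it also passed for Bdnf at -1.63 (limma adjusted p = 0.000584). Cckbr at -0.83, Ankrd33b at -0.86 and Kcnk13 at 0.67 passed too, and this is not a full list. Each of these values sets the arrays of day 1 against those of day 2, 28.6% of all genes passed for it, and a change with time cannot be told apart from the scan day. The Npas4 value depends on blocked 26 h arrays that were not well above background.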

How the results depend on the processing

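The Arc effect kept its direction and its call at 9 h, at 26 h and on average under normexp, quantile, median and deposited-matrix scaling, without the filter, with outlier spots kept, with probes averaged, with the replicate or slide block and with array weights. It ran from -1.86 to -1.78 at 9 h and -4.05 to -3.70 at 26 h, single Arc spots (chosen after seeing the data) included. Within scan days the differences were -3.50 and -2.10. The difference of the effects, -1.94, had a limma adjusted p of 0.143 with slide as a random block. The replicate block changed no call of Arc, and the list members it added are named beside their lists. With it 7624 genes were called at 9 h, 6739 at 26 h and 2798 on average, against 4478, 3475 and 944. The slide block gave 2992 on average, and array weights 8238 at 26 h and 2079 on average. Leaving out 1 array, or 1 replicate number in every group, moved Arc between -2.22 and -1.27 at 9 h, -3.96 and -3.50 at 26 h, -2.99 and -2.52 on average, -2.49 and -1.49 for the difference of effects (5 of 15 still called), -0.28 and 0.89 between controls, -1.88 and -1.47 between blocked groups, and -1.03 and -0.29 for the averaged time effect. The sign between controls turned without replicate 2 of control 9 h (-0.12) and without replicate 2 throughout (-0.28). The change between blocked groups lost its call without blockade 9 h replicate 3, blockade 26 h replicate 2, replicate 1 or replicate 2. Genes called then ran from 0 to 4646 at 9 h, 20 to 4476 at 26 h and 36 to 981 on average. The immediate early genes called lower ran from 0 to 14 at 9 h, 0 to 15 at 26 h and 0 to 16 on average. All of these lowest counts came without replicate 2, where limma still gave 3994, 3140 and 1579 genes at an unadjusted p under 0.05. The causes were not tested. The precision is limited by the number of arrays, and Npas4 at 26 h by signal over background.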

Other observations

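Arc descends from the Gag gene of a retrotransposon, and other genes of such origin were read beside it. Of 13 listed, 6 were tested, and on average 1 was called higher and 0 lower, where 2.23% and 2.22% of all genes were, with a median effect of 0.28 against -0.02 over all genes and 2 at an unadjusted p under 0.05. The called gene was Pnma2, a paraneoplastic antigen gene, at 0.58, with 0.96 at 9 h and 0.21 at 26 h. By limma, 3500 of all 21240 genes had an unadjusted p under 0.05 on average. Pnma1 (0.17), Pnma3 (0.49), Pnma8a (0.24), Pnma8b (0.32) and Zcchc12 (-0.08) were not called.

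Inhibitory neuron markers (5 tested) gave no call on average and 0 unadjusted p under 0.05, and the 6 oligodendrocyte lineage markers gave 1 call, lower, where 2.22% of all genes were, Cspg4 at -0.52, which was lost with scaling to the array median. With the replicate number as a block Olig2 (-0.30) and Pdgfra (-0.40) were called lower as well, where 1485 of all 21240 genes were. Of 9 reference genes, Actb, Ppia and Pgk1 were saturated on all 12 arrays and Gapdh on 8, so that their values say nothing of stability. The other 5 gave no call on average and 0 unadjusted p under 0.05, between -0.09 and 0.09. The 6 microglial markers gave no call either, with 0 unadjusted p under 0.05. Of all 21240 genes, 3500 had an unadjusted limma p under 0.05 on average.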
